A study of Mus musculus with 6 samples.

Results

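The genes of major histocompatibility complex (MHC) class I antigen processing were followed in mouse A316 cells, a primary adenocarcinoma line in which the transcription factor gene Cebpa is knocked out. The 10 genes B2m, Tap1, Tap2, Tapbp, Tapbpl, Psmb8, Psmb9, Psmb10, Nlrc5 and Erap1 were chosen by name, and all 10 were measured among 19937 named genes. Each gene was read from its brightest probe set that carries that gene symbol alone. RNA of treated cells, which received the small molecule PTC-209 (in the labels a compound for Bmi inhibition) with 0.5% DMSO as its vehicle, was hybridised to 3 Affymetrix arrays, and RNA of control cells with the vehicle alone to 3 more. The Cebpa knockout is shared by both groups, all arrays come from the same line, and neither dose nor duration of the treatment is stated in the labels. The comparison asks how the transcripts of class I processing stand when Bmi1, a member of Polycomb complex PRC1, which represses genes, is targeted in this background.

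MHC class I molecules show peptides from the inside of a cell to cytotoxic T cells. The proteasome cuts proteins into peptides, the TAP transporter carries them into the endoplasmic reticulum (ER), chaperones help to load them, aminopeptidases trim their ends, and the class I heavy chain binds them together with beta-2 microglobulin. Interferon gamma raises most of these genes, which are often low in tumour cells that escape T cells.

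The median log2 value of an array lay between 4.07 and 4.14. Arrays correlated across probe sets at 0.992 to 0.996 within a group and at 0.97 to 0.974 between groups. Group values are means of the log2 expression on 3 arrays ± SD, and a difference is the PTC-209 mean less the DMSO mean. A gene rose or fell when its p from limma, adjusted by Benjamini and Hochberg over all 28192 tested probe sets, was under 0.05. No label says that arrays within a group stem from separate cultures, and the p-values then cover only the spread among these samples, possibly a technical one. Only 3 arrays per group limit the precision.

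With PTC-209 1 of the 10 class I processing genes rose, Erap1, which trims peptides in the ER, and 0 fell (at an unadjusted p under 0.05 by limma, 2 were higher and 1 lower). Among all named genes 12.9% rose and 13.7% fell, together 26.6%. At an unadjusted p under 0.05 by limma, 3623 of the 19937 named genes were higher and 3496 lower. The unadjusted counts of the gene lists below stand beside the same all-gene counts. The median log2 difference of the 10 genes was 0.01, beside 0.03 over all named genes, with 5 differences above and 5 below zero. In size the differences of Erap1, Tapbp and Psmb10 exceeded those of 80.5%, 78.1% and 74.5% of the named genes. The 95% intervals of all 10 differences lay between -0.68 and 0.79 on the log2 scale, and so within a 2-fold change in either direction. For a dim probe set the measured difference can understate the true one. The mean of Psmb8 lay below the median brightness of all tested probe sets, 4.33, in both groups, that of Tap1 in 1 group, and those of the other 8 genes lay above it in both. The groups did not overlap for 4 of the 10 genes, Erap1, Tapbp, Psmb9 and Psmb10, beside 40.5% of all named genes.

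**Figure D1:**
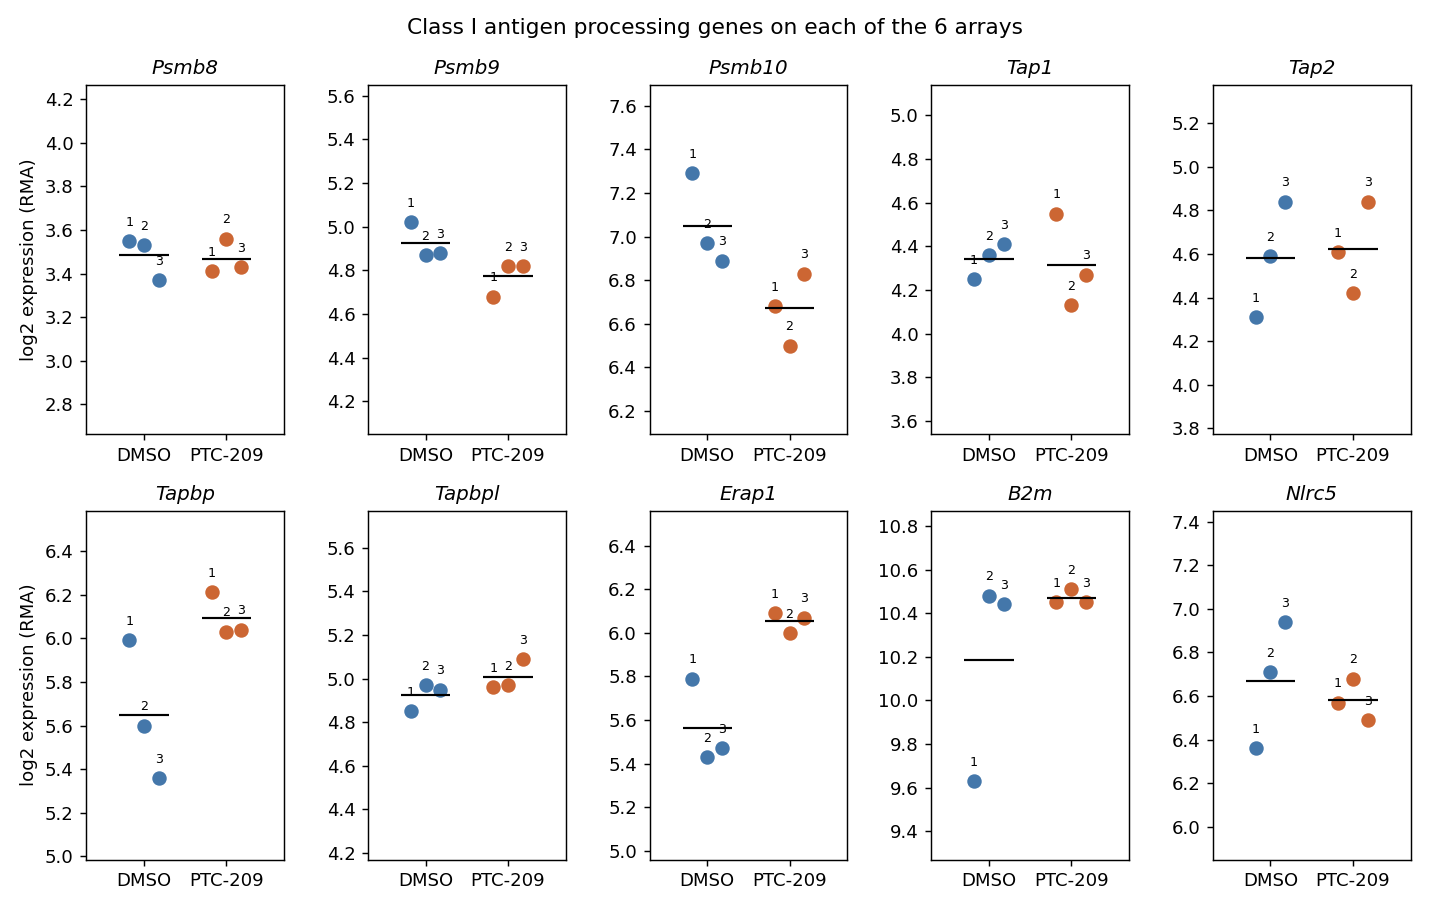
Log2 expression (vertical axis, RMA values) of the 10 class I processing genes in DMSO (blue) and PTC-209 (orange); each point is 1 array with its replicate number, the line is the group mean; all panels span the same number of log2 units. Erap1 lies at 5.43 to 5.79 in DMSO and at 6.0 to 6.09 with PTC-209, while B2m has 1 low DMSO array, at 9.63.

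Erap1, the ER aminopeptidase that shortens peptides to the length class I molecules hold, measured 5.79, 5.43 and 5.47 on the DMSO arrays and 6.09, 6.0 and 6.07 on the PTC-209 arrays. All PTC-209 arrays lay above all DMSO arrays. The mean went from 5.56 ± 0.196 to 6.05 ± 0.0482, a 1.40-fold higher level (95% interval 1.17 to 1.68; log2 difference 0.49, SE 0.115, limma adjusted p = 0.0119). The call held whichever 1 array was left out (largest adjusted p 0.05 when rounded, without DMSO replicate 2) and was lost in a test against a minimum fold change of 1.2 (adjusted p = 0.236, the highest of 16 alternatives, of which the lowest was 0.00223).

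The start of Erap1 is shown because it is the gene that rose. These are 30 bases across the transcription start in the RefSeq promoter table (GRCm38.p6, chr13:74639839-74639868, plus strand), with a match to the core of the interferon-stimulated response element in capitals.
Erap1: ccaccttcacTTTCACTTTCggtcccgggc
The core was searched as a pair of GAAA with 2 bases of any kind between them, on both strands of windows from 250 bases before to 50 after the start, and 3.44% of all 32851 windows held it. RefSeq windows were found for 7 of the 10 genes, and 2 of those 7, Erap1 and B2m, held a match. The match is a description of the letters and was not tested as a site.

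The immunoproteasome subunits Psmb8, Psmb9 and Psmb10 replace constitutive catalytic subunits of the proteasome after interferon and change where it cuts. By limma 0 of the 3 passed the test (1 at an unadjusted p under 0.05), and the values ran from near no difference for Psmb8 to a lower mean for Psmb10. Psmb10 measured 7.29, 6.97 and 6.89 in DMSO and 6.68, 6.50 and 6.83 with PTC-209. Its groups did not overlap, but they lay only a little apart between DMSO replicate 3 and PTC-209 replicate 3. The means were 7.05 ± 0.212 and, with PTC-209, 6.67 ± 0.163 (log2 difference -0.38, SE 0.133, 95% interval -0.68 to -0.08, limma adjusted p = 0.0695). This value stood close to the threshold and passed it in 3 of 16 alternatives, with cyclic loess (adjusted p = 0.0322), with a trended and robust prior (0.0498) and without dim probe sets (0.0375; 0.0322 to 0.829 over the alternatives).

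Psmb9 measured 5.02, 4.87 and 4.88 in DMSO and 4.68, 4.82 and 4.82 with PTC-209. The PTC-209 arrays were the lower ones, by a narrow margin (log2 difference -0.15, 95% interval -0.37 to 0.07, limma adjusted p = 0.346). Psmb8 measured 3.55, 3.53 and 3.37 in DMSO and 3.41, 3.56 and 3.43 with PTC-209, and its groups overlapped (log2 difference -0.02, 95% interval -0.24 to 0.20, limma adjusted p = 0.935). At this dim level a change could have been missed.

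Each of these subunits takes the place of a constitutive one, Psmb5 for Psmb8, Psmb6 for Psmb9 and Psmb7 for Psmb10. Psmb6 rose, from 11.02, 11.04 and 11.01 to 11.49, 11.46 and 11.52, a 1.38-fold higher level (95% interval 1.21 to 1.58, limma adjusted p = 0.00335). The call of Psmb6 ended when a fold change above 1.2 was required (adjusted p = 0.144; 8.66e-05 to 0.144 over the alternatives). Psmb5 (log2 difference -0.15) and Psmb7 (0.04) did not pass.

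The log2 difference between the subunits of a pair was taken within each array and set relative to its DMSO mean, which shows whether the pair changed unequally. For Psmb9 with Psmb6 it was 0.10, -0.08 and -0.02 in DMSO and -0.71, -0.54 and -0.60 with PTC-209. Against Psmb6 the level of Psmb9 was thus 1.53-fold lower, a change of -0.61 (SE 0.0719), and 3 of 3 PTC-209 arrays lay below all DMSO arrays. Most of it came from Psmb6, with a log2 difference of 0.47, while that of Psmb9 was -0.15 and did not pass. Psmb9 was also much dimmer, with a DMSO mean of 4.92 against 11.02, and whether brightness bears on the unequal change was not tested. For Psmb10 with Psmb7 the change was -0.43 (SE 0.17), with PTC-209 arrays at -0.39, -0.59 and -0.29 below DMSO arrays at 0.29, -0.13 and -0.16; without DMSO replicate 1 the change was -0.28. Both pairs reached an exact two-sided permutation p of 0.1, which is the smallest that 3 arrays against 3 allow (0.15 adjusted over the 3 pairs), so neither can pass 0.05. For Psmb8 with Psmb5 the groups overlapped (change 0.13, SE 0.11, exact p = 0.5; 0.05 to 0.18 with each array left out in turn).

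**Figure D2:**
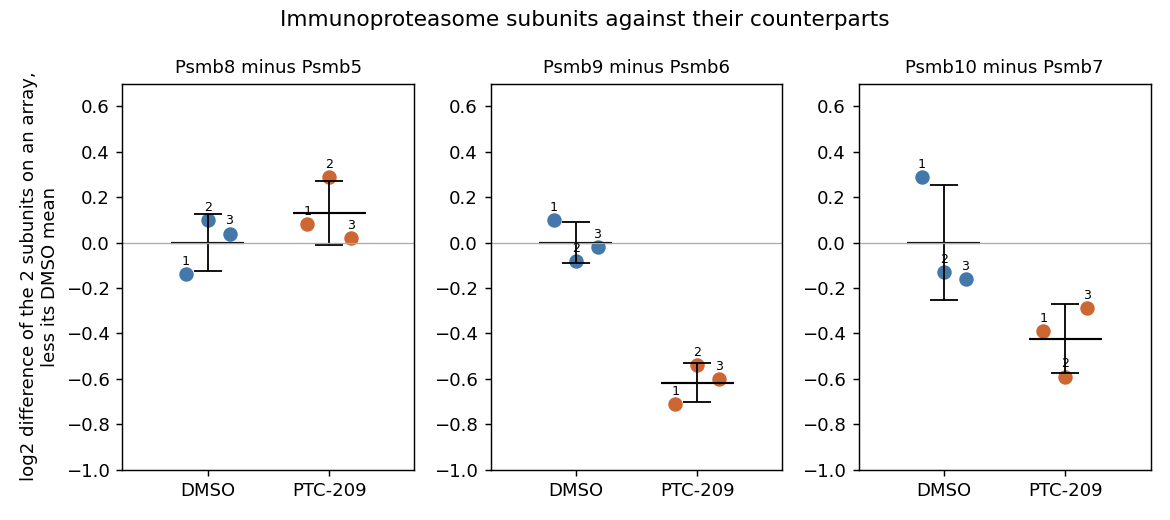
Log2 difference between an immunoproteasome subunit and its constitutive counterpart on each array, less the DMSO mean of that pair (vertical axis), for DMSO (blue) and PTC-209 (orange); points are arrays with their replicate numbers, lines are means and bars are SD of 3 arrays. The Psmb9 pair lies at -0.54 to -0.71 on the PTC-209 arrays and at -0.08 to 0.10 in DMSO, while the Psmb8 pair overlaps.

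Of 6 measured genes for activators, an assembly factor and an inhibitor of the proteasome 1 fell and 1 rose, beside 26.6% of all named genes called in either direction. Psme1, the alpha subunit of the 11S activator PA28, fell from 10.32, 10.12 and 10.04 to 8.76, 8.82 and 8.83. The arrays of the groups lay more than 1 log2 unit apart, and the level was 2.56-fold lower (95% interval 2.18 to 3.01, limma adjusted p = 1.24e-05). Psme2, the beta subunit of the same ring, measured 8.60, 8.34 and 8.20 in DMSO and 8.56, 8.34 and 8.64 with PTC-209 and did not pass (log2 difference 0.13, SE 0.13, limma adjusted p = 0.56). A further probe set lists Psme2 together with other genes and was not used. Psmf1, the proteasome inhibitor PI31, rose from 6.77, 6.47 and 6.45 to 7.81, 7.64 and 7.71, a 2.22-fold higher level (limma adjusted p = 6.74e-05). The other activators, Psme3 (0.09 on the log2 scale) and Psme4 (-0.34), and the assembly factor Pomp (0.12) did not pass. Psme4 stood close to the threshold (limma adjusted p = 0.0713). Its groups did not overlap, and it passed as lower in 5 of 16 alternatives. The calls of Psme1 and Psmf1 held under all 16 alternatives.

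Tap1 and Tap2 form the transporter that moves peptides into the ER, and neither differed beyond its spread. Tap1 measured 4.25, 4.36 and 4.41 in DMSO and 4.55, 4.13 and 4.27 with PTC-209 (log2 difference -0.03, 95% interval -0.30 to 0.25, limma adjusted p = 0.922). Tap2 measured 4.31, 4.59 and 4.84 in DMSO and 4.61, 4.42 and 4.84 with PTC-209 (log2 difference 0.04, 95% interval -0.30 to 0.39, limma adjusted p = 0.898). For both genes the range of the PTC-209 arrays covered most of that of the DMSO arrays.

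Tap1 and Psmb9 are neighbours that are read away from each other, and their starts in RefSeq leave 225 bases between them (GRCm38.p6, chr17:34187331-34187555, shown on the strand of Tap1). The stretch is shown because it lies before the starts of both genes. Capitals mark matches to CCAAT, the box bound by NF-Y, and to TGACG, the core of the X2 box bound by CREB and ATF factors, both searched on either strand.
Tap1-Psmb9: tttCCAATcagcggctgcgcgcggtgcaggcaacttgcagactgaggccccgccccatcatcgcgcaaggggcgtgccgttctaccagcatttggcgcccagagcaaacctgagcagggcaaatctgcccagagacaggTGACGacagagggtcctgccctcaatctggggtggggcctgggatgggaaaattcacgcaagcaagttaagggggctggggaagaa
CCAAT was found in 4 of the 7 windows, those of B2m, Psmb9, Tap1 and Tapbp, and in 37.4% of all windows. TGACG was found in 3 of the 7, those of B2m, Psmb9 and Tap1, and in 20.8% of all windows. The windows of Tap1 and Psmb9 overlap, so their matches are the same letters. The log2 differences of the gene pair were -0.03 for Tap1 and -0.15 for Psmb9, and neither passed the test.

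Tapasin, Tapbp, holds an empty class I molecule at the TAP transporter until a peptide binds. It measured 5.99, 5.60 and 5.36 in DMSO and 6.21, 6.03 and 6.04 with PTC-209. Another 2 probe sets list Tapbp together with other genes and were not used. The groups did not overlap, although DMSO replicate 1 lay just under the lowest PTC-209 array. The means were 5.65 ± 0.32 and, with PTC-209, 6.09 ± 0.104 (log2 difference 0.44, SE 0.154, 95% interval 0.10 to 0.79, limma adjusted p = 0.0684). It passed in 5 of 16 alternatives, among them without DMSO replicate 1, where the difference was 0.61 (adjusted p = 0.00635; 0.00635 to 0.622 over the alternatives), and with that array left out 2 of the 10 genes rose.

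Tapbpl, or TAPBPR, a tapasin relative that edits the bound peptides away from the transporter, measured 4.85, 4.97 and 4.95 in DMSO and 4.96, 4.97 and 5.09 with PTC-209. The groups overlapped, and the interval was the narrowest of the 10 genes (log2 difference 0.08, 95% interval -0.12 to 0.29, limma adjusted p = 0.61). The general ER chaperones that join the loading complex, Calr (0.22 on the log2 scale), Canx (0.28) and Pdia3 (0.18), lay above zero and 0 of the 3 passed (1 higher at an unadjusted p under 0.05 by limma). Without DMSO replicate 1 the differences were 0.28 for Calr, 0.14 for Canx and 0.06 for Pdia3.

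B2m encodes beta-2 microglobulin, the light chain that every class I molecule needs to reach the surface. It measured 9.63, 10.48 and 10.44 in DMSO and 10.45, 10.51 and 10.45 with PTC-209. DMSO replicate 1 lay well under the other 5 arrays, which spanned only 10.44 to 10.51. The log2 difference was 0.29 (SE 0.202, 95% interval -0.17 to 0.74, limma adjusted p = 0.39), and 0.01 without DMSO replicate 1 (adjusted p = 0.965). On the same array Canx, at 10.37 against 10.74 to 10.98 on the other 5, and Pdia3, at 10.07 against 10.38 to 10.60, were also lowest. Calr went the other way there, at 10.19 against 10.05 and 9.97 on the other DMSO arrays. Of the processing genes, Erap1, Tapbp, Psmb8, Psmb9 and Psmb10 were highest in DMSO on this array, and B2m, Tap1, Tap2, Tapbpl and Nlrc5 lowest. Whether this array bears on B2m beyond its own value was not tested.

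The B2m promoter held a match to each of the 4 motifs searched and is shown for that reason, as the 250 bases before the RefSeq start (GRCm38.p6, chr2:122147437-122147686, plus strand). In capitals, in order, stand the core of the interferon-stimulated response element, the kappa-B site, the core of the X2 box and a CCAAT box on the other strand. The kappa-B site was searched as GGGA and TCC with 3 bases of any kind between them, and its matches on both strands overlap here.
B2m: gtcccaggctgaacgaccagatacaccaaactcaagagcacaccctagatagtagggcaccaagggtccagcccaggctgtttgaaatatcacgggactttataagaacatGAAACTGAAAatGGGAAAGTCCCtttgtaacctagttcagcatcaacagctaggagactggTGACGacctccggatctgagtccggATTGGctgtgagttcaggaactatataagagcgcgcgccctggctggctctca
The kappa-B letters were found in 1 of the 7 windows and in 4.59% of all windows.

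Nlrc5 is the transactivator that drives class I genes and many of their partners, and it was read by 19 probe sets. Its brightest probe set measured 6.36, 6.71 and 6.94 in DMSO and 6.57, 6.68 and 6.49 with PTC-209. The PTC-209 arrays lay inside the DMSO range (log2 difference -0.10, 95% interval -0.42 to 0.23, limma adjusted p = 0.728). Over the 19 probe sets the differences ran from -0.31 to 0.33, with a median of 0.08, 13 above and 6 below zero. By limma 0 of the 19 passed (1 at an unadjusted p under 0.05; smallest adjusted p 0.103). The 95% intervals of all 19 lay between -0.63 and 0.70, and 8 of the 19 had a mean above the median brightness.

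**Figure D3:**
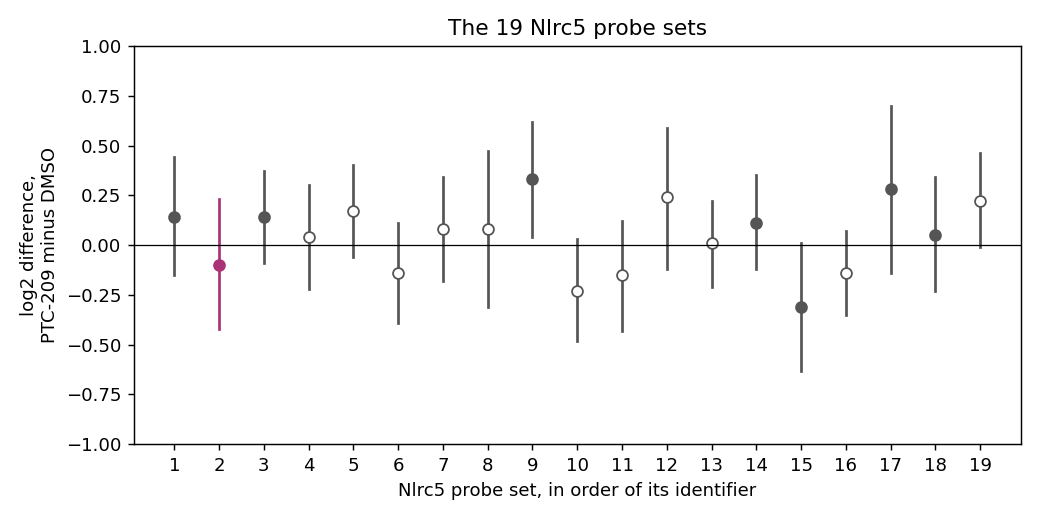
Log2 difference, PTC-209 minus DMSO, with its 95% limma interval (vertical axis) for the 19 Nlrc5 probe sets in the order of their identifiers; filled points are above the median brightness, open points below, and the coloured point is the brightest. The differences scatter on both sides of zero, from -0.31 to 0.33.

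The other class I genes were taken from 7 lists of heavy chains, chaperones, proteasome parts, trimming enzymes, promoter factors and interferon gamma signalling. Of their 44 measured genes 7 rose, 5 fell and 32 did not pass, with a median log2 difference of 0.07. The share called lay near the 26.6% called over all named genes. Among the heavy chains 1 of 9 rose, H2-T24, a non-classical class I gene, from 4.40, 4.47 and 4.26 to 4.91, 4.84 and 4.78 (1.38-fold, limma adjusted p = 0.00622; 0.196 when a fold change above 1.2 was required, and 0.00278 to 0.196 over the alternatives). The remaining 8 had log2 differences between -0.25 and 0.33, including H2-Q2 at 0.33, H2-T10 at 0.27 and H2-M3 at -0.25. Of the 9 heavy chains 4, namely H2-Q4, H2-Q10, H2-Bl and Cd1d1, lay below the median brightness, 4.33, in both groups. In these 4 a change could have been missed. The DMSO mean of H2-T24, 4.38, stood just above that median. Heavy chain genes are close copies of each other, and a probe set may read more than the copy it is named for. The classical heavy chains H2-K1 and H2-D1 have no value here, because the 2 probe sets that list each of them list several genes.

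Of the 6 other measured peptide trimming enzymes 1 fell and 0 rose, beside 26.6% of all named genes called in either direction. The aminopeptidase Rnpep fell from 5.72, 5.66 and 5.64 to 4.91, 5.26 and 5.02 (1.53-fold lower, limma adjusted p = 0.0028). Lap3 (0.13 on the log2 scale), an aminopeptidase raised by interferon gamma, Blmh (-0.21), Thop1 (-0.08), Tpp2 (-0.27) and Npepps (-0.07) did not pass. Tpp2 stood close to the threshold (limma adjusted p = 0.0704). Its groups did not overlap, and it passed as lower in 5 of 16 alternatives. Erap1, in the ER, and Rnpep thus lay on opposite sides of zero.

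**Figure D4:**
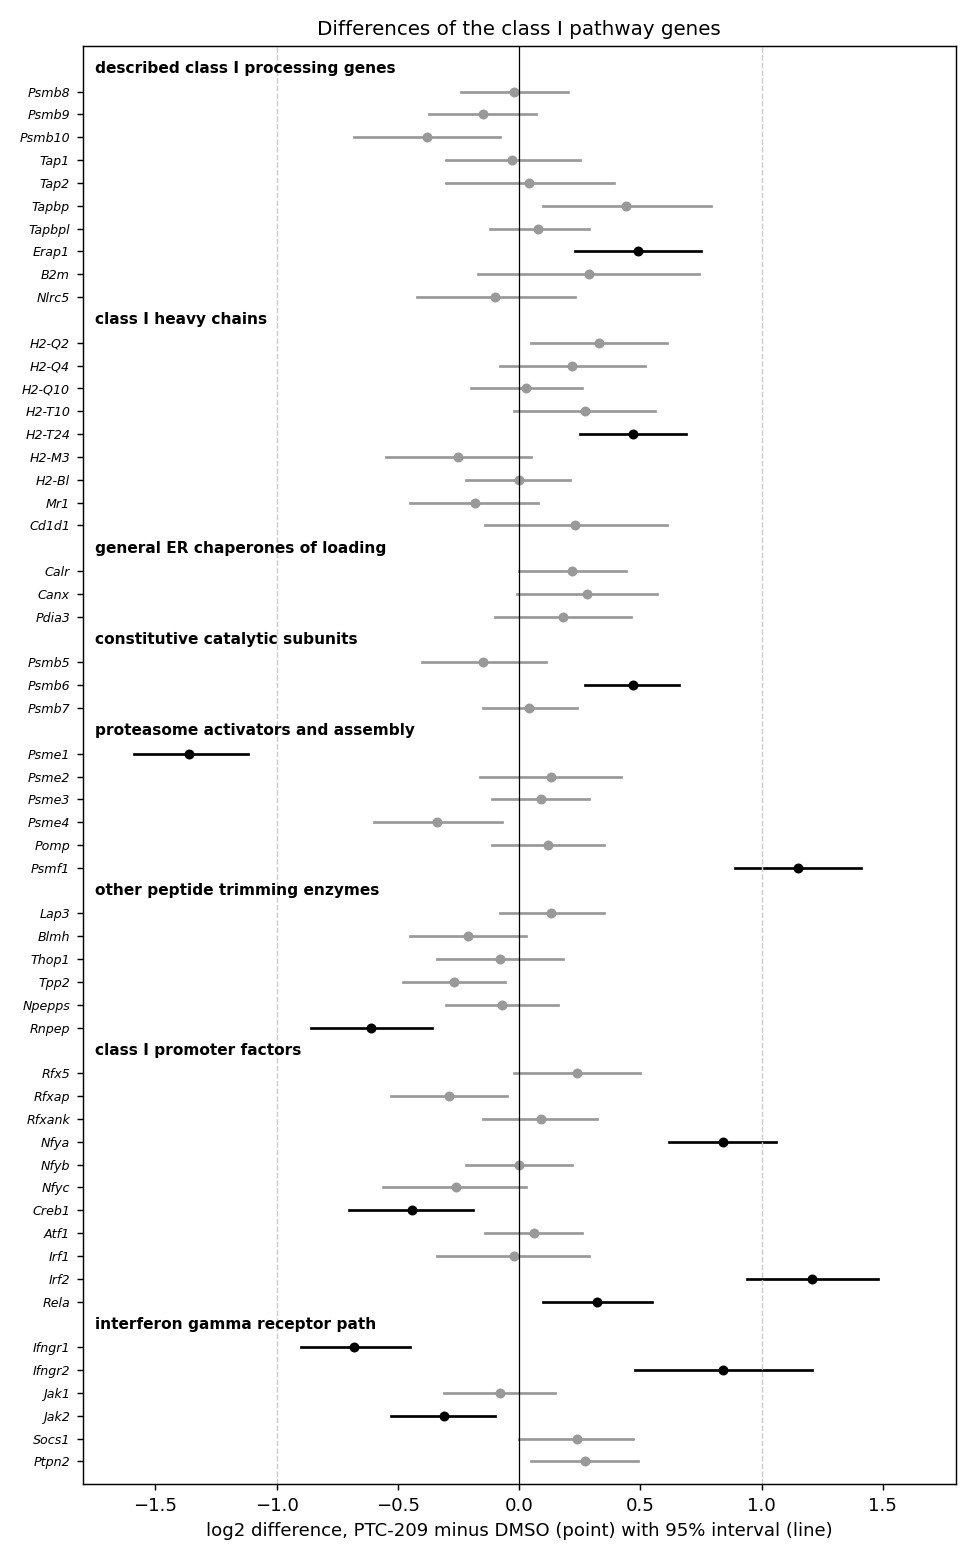
Log2 difference, PTC-209 minus DMSO (horizontal axis), with its 95% limma interval for the 10 class I processing genes and the 44 genes of the 7 other lists; black marks genes past the adjusted threshold, grey the others, and dashed lines mark a 2-fold change. Psme1 at -1.36, Irf2 at 1.21 and Psmf1 at 1.15 lie past those lines, and the 10 processing genes lie inside them.

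Of 11 measured factors that bind class I promoters 3 rose, 1 fell and 7 did not pass, beside 26.6% of all named genes called in either direction. Irf2, an interferon regulatory factor that binds the interferon-stimulated response element, rose from 8.61, 8.35 and 8.21 to 9.57, 9.68 and 9.54. The lowest PTC-209 array stood clear of the highest DMSO array, and the level was 2.32-fold higher (95% interval 1.92 to 2.79, limma adjusted p = 6.46e-05). Irf1, the activator that binds the same element, overlapped between groups (log2 difference -0.02, SE 0.14, limma adjusted p = 0.945). Nfya, a subunit of the CCAAT-binding NF-Y, rose 1.79-fold (from 6.75 ± 0.101 to 7.59 ± 0.0617, limma adjusted p = 1.74e-04), while its partners Nfyb (0.00 on the log2 scale) and Nfyc (-0.26) did not pass. Creb1, which binds the X2 box, fell 1.36-fold (limma adjusted p = 0.0169; 0.00578 to 0.367 over the alternatives, and not called without PTC-209 replicate 2 or when a fold change above 1.2 was required). Rela, the NF-kB subunit p65, rose 1.25-fold (limma adjusted p = 0.0428), a call lost in 9 of 16 alternatives, among them leaving out any array except DMSO replicate 1 (0.0148 to 1 over the alternatives). The RFX subunits, which bind the X1 box with Nlrc5, did not pass, at 0.24 for Rfx5, -0.29 for Rfxap and 0.09 for Rfxank.

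The chains of the interferon gamma receptor moved in opposite directions. Ifngr1, which binds the cytokine, fell from 7.75, 7.76 and 7.66 to 7.13, 7.09 and 6.92, a 1.60-fold lower level (limma adjusted p = 7.56e-04). Ifngr2, the signalling chain, rose from 7.65, 7.15 and 6.99 to 8.23, 8.10 and 7.99, a 1.79-fold higher level (limma adjusted p = 0.00409). Neither gene's groups overlapped, and both calls held under all 16 alternatives. The receptor kinase Jak2 fell 1.24-fold (limma adjusted p = 0.0415), a call lost in 10 of 16 alternatives, among them leaving out each array in turn (0.0126 to 1 over the alternatives). Without PTC-209 replicate 2 the pathway lists held 3 falls in place of 5. Jak1 (-0.08 on the log2 scale) and the inhibitors Socs1 (0.24) and Ptpn2 (0.27) did not pass. In this list of 6 measured genes 1 thus rose and 2 fell, beside 26.6% of all named genes called in either direction.

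The cells were also read for the class II pathway and for markers of other cells that present antigen. All 8 measured class II genes, including the invariant chain Cd74 and the class II transactivator Ciita, lay below the median brightness in both groups, and 0 passed by limma (0 at an unadjusted p under 0.05). Of 7 leukocyte markers 6 lay below it in both groups and 0 passed (1 lower at an unadjusted p under 0.05), and their summed linear level was 68.8 to 76.7 in DMSO and 73.2 to 74.8 with PTC-209. All 6 epithelial markers lay above it in both groups; the keratins Krt7, Krt8, Krt18 and Krt19 fell and Cdh1 rose, with a summed linear level of 8890 to 9960 in DMSO and 5040 to 5750 with PTC-209. Of 7 lung epithelial markers 6, among them Nkx2-1 and Sftpc, lay below it in both groups. Of 5 endothelial markers 4 lay below it in both groups and Cdh5 was bright and fell from 9.48 ± 0.0486 to 8.15 ± 0.211, and of 6 fibroblast markers 3 lay below it in both groups and 0 passed (1 higher at an unadjusted p under 0.05). The part of the epithelial and Cdh5 changes in the class I results was not tested. In a bulk sample, fewer cells of a type and less RNA per cell cannot be told apart.

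Averaged over the 10 processing genes after centring each, the arrays lay between -0.07 and 0.06 on the log2 scale, at -0.07, -0.02 and -0.02 in DMSO and at 0.05, -0.01 and 0.06 with PTC-209. The 5 genes whose pattern over the 6 arrays was most like this average were Fndc11 (Pearson r 0.996), Slfn1 (0.991), Sim2 (0.988), Tmem116 (0.985) and Olfr198 (0.985). These are the highest of all named genes over only 6 arrays, which share their normalization, and are given as a description.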

How the data were processed

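The authors deposited 1 table of log2 expression values for 34760 probe sets on 6 Affymetrix arrays, made with RMA (background correction, quantile normalization, probe set summary) per the submitters' processing notes, with no version stated. RMA makes the distributions of the arrays alike, which would hide a change common to most genes. A block of 6568 control probe sets, recognised by its consecutive identifiers without genes, was left out. Of the 28192 tested probe sets 21640 carry 1 symbol in the platform annotation, 1321 several and 5231 none; probe sets with several name no gene. Groups come from the titles. Differences were fitted with limma 3.58.1 in R 4.3.3 (lmFit, eBayes; 4 residual and 5.27 prior degrees of freedom), checked on simulated data. Subunit pairs were compared by an exact permutation test. Figures were drawn with matplotlib 3.10.9. The genes, lists, motifs and alternatives were chosen with earlier results of these data known. Named were all 10 genes, every list gene past the threshold (up to 20) and all measured genes of pathway lists of 8 or fewer. Marker lists are given by counts and ranges. Other genes named, in the marker lists and among heavy chains and promoter factors that did not pass, were chosen after their values were seen. Of 57 list entries 44 were measured, and the others were not analysed here.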

Additional observations from a re-analysis of the deposited data

How the results depend on the processing

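Of 39 genes followed through up to 16 alternatives, 28 kept their side of the threshold throughout, 6 lost a call and 5 gained one in at least 1 alternative, and 0 reversed as a call. Those that gained a call were Tapbp, Psmb10, Psme4, Tpp2 and Ptpn2. The class I processing genes that rose numbered 2 in place of 1 with array weights, quantile normalization again or without dim probe sets, 0 when a fold change above 1.2 was required, and 1 to 2 with each array left out in turn. Those that fell numbered 1 in place of 0 with cyclic loess, a trended and robust prior or without dim probe sets. The other class I genes that rose numbered 4 in place of 7 when a fold change above 1.2 was required. Those that fell numbered 8 in place of 5 with array weights or without dim probe sets, 3 with that fold requirement, and 3 to 5 with each array left out in turn. Same-numbered arrays deviated together with r of 0.231, 0.0703 and 0.0733, and 3 of 6 arrays correlated best with their own number. These values do not settle whether the numbers pair the arrays, and the main test did not pair them. With the replicate block 2 processing genes rose, Erap1 and Tapbp (limma adjusted p = 0.0234 for Tapbp). No scaling put the median log2 difference of all named genes above 0.03. Psmb8 has no value without dim probe sets. The 3 subunit pairs kept their direction in all 10 alternatives run on them, although with 3 arrays a group the smallest exact p is 0.1; the change of Psmb10 with Psmb7 was -0.51 to -0.28 with each array left out in turn. Precision is limited by 3 arrays a group and, for Psmb8, Tap1 and 4 of the heavy chains, by a signal near or below the median brightness. The cause of these shifts was not tested.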
